A study of Mus musculus with 17 samples.

Results

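The anion channels and chloride transporters of the mouse β cell were described here by 10 genes, matched by symbol among the 55357 genes of the deposited files: *Cftr*, *Lrrc8a*, *Lrrc8b*, *Lrrc8c*, *Lrrc8d*, *Lrrc8e*, *Ano1*, *Slc26a3*, *Slc12a2* and *Clcn3*. All 10 passed the filter on low counts, which kept 22784 genes. The cells came from islets of male mice on a C57BL/6 background. Control (*tdTomato*) mice carried RIP-Cre and a Cre-inducible tdTomato reporter, and *Pcbp2* βKO mice carried both and loxP-flanked *Pcbp2* alleles (*Pcbp2* fl/fl). Both genotypes therefore shared Cre, driven by the rat insulin promoter, and the reporter, and cells were sorted for tdTomato after islets had been kept for 3 days at 2.8 or 16.7 mM glucose. Before that, as the paper's methods state, islets for sequencing recovered for 3 days in medium with an intermediate glucose concentration. RNA was sequenced from 3 control samples at 2.8 mM, 4 control samples at 16.7 mM and 5 *Pcbp2* βKO samples at each concentration. The age of these mice, and whether islets of several mice were pooled, are not given in the sources used here.

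Anion channels let chloride and organic anions cross the plasma membrane, and the direction of chloride flow depends on the gradient that cotransporters and exchangers set up. *Slc12a2* encodes NKCC1, which loads cells with chloride, so that opening of a chloride channel depolarizes a β cell. *Lrrc8a* encodes the obligatory subunit of the volume-regulated anion channel, which joins with the products of *Lrrc8b* to *Lrrc8e* and opens when a β cell swells. *Cftr* encodes the cAMP-activated channel mutated in cystic fibrosis, *Ano1* a calcium-activated chloride channel, *Slc26a3* a chloride/bicarbonate exchanger of the intestinal epithelium, and *Clcn3* a chloride/proton exchanger of intracellular vesicles. Pcbp2, the protein deleted here, is an RNA-binding protein that prefers single-stranded cytosine-rich RNA.

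Because of that preference, the most cytosine-rich stretch of 18 bases in the 3′-UTR of the most abundant coding transcript of each gene was read from the GRCm39 genome. It is shown for the 3 genes whose expression fell in *Pcbp2* βKO cells and for *Lrrc8b* and *Lrrc8d*, which flank *Lrrc8c* on chromosome 5. Capitals mark cytosines.
Cftr (chr6:18321111-18321128, forward strand): tCCCatgCttCtaaCCCC
Slc26a3 (chr12:31523810-31523827, forward strand): CaCCaCtgCtttgaCtCC
Lrrc8c (chr5:105757390-105757407, forward strand): CCaCtaCCCCCatCCaCC
Lrrc8b (chr5:105634231-105634248, forward strand): CCCCaCCCCCaCCCCaaC
Lrrc8d (chr5:105962437-105962454, forward strand): tCCtCCtCCtCCtCCtCC
The stretch of *Cftr* held 9 cytosines, and 85.6% of the 15262 tested genes with a 3′-UTR in the annotation had a stretch with at least as many. That of *Slc26a3* held 8, which 92.6% of genes reached, and that of *Lrrc8c* held 12, which 38.2% reached. Longer 3′-UTRs offer more stretches, and among genes with a 3′-UTR from 20% shorter to 25% longer than its own these shares were 95.5% for *Cftr*, 88.3% for *Slc26a3* and 63.6% for *Lrrc8c*. *Lrrc8b*, with 14 cytosines (12.1% of genes, and 23.3% of those of similar length), had the richest stretch of the 10 genes, and those of *Lrrc8a*, *Slc12a2* and *Clcn3* held 13. The stretches of *Slc26a3* and *Cftr* were the poorest in cytosine among the 10 genes. These are counts of letters in the annotated 3′-UTRs and not sites shown to be bound.

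*Pcbp2* itself was lower in every library labelled as knockout than in every control library at the same glucose concentration. Its level was 40.4 ± 5.27 CPM (estimated counts scaled to library size; SD, n = 4) in control cells and 7.66 ± 1.68 (n = 5) in *Pcbp2* βKO cells at 16.7 mM, and 62.5 ± 11.4 (n = 3) and 17.4 ± 1.39 (n = 5) at 2.8 mM. Total estimated counts per sample lay between 47385513 and 82419400. On the first principal component, which held 30.02% of the variance of the genes tested, 1 control library (replicate 4) and 2 *Pcbp2* βKO libraries (replicates 4 and 5) at 16.7 mM lay between 9.87 and 33.2, while the other libraries at 16.7 mM lay between 90.9 and 99.1 and those at 2.8 mM between -105 and -42.4. Called results at 16.7 mM are therefore also given without these 3 libraries, except for listed genes that then failed the filter. Duct cells, which express *Cftr* strongly, were represented by 8 other markers. Their summed level ranged from 494 to 564 CPM in control and 466 to 581 CPM in *Pcbp2* βKO cells at 2.8 mM, and from 437 to 1203 and 408 to 617 CPM at 16.7 mM. Most of this sum was *Krt7* and *Spp1*, while *Krt19* and *Sox9*, also among the 8, reached at most 2.17 and 1.07 CPM in any sample. The share of duct cells in the *Cftr* values was not tested. Of the 6 duct markers that could be tested, edgeR called 0 in either knockout comparison, with 1 and 2 at an unadjusted p under 0.05 at 16.7 and 2.8 mM. DESeq2 called 0 and 1 of them. Markers of acinar, endothelial and stellate cells summed to at most 4.96, 6.70 and 5.25 CPM. The 8 β-cell markers summed to 117909 to 122020 CPM in control and 66584.6 to 96867.1 CPM in *Pcbp2* βKO libraries at 2.8 mM, without overlap, and *Ins1*, 1 of the insulin genes, was called lower there (log2 fold change -3.04, SE 0.26, adjusted p 2.32e-06). At 16.7 mM these sums overlapped (269900 to 522453 and 357199 to 472073 CPM). *Ins1* was the 1 of the 8 β-cell markers that edgeR called at 2.8 mM, where 4 were at an unadjusted p under 0.05. At 16.7 mM both counts were 0. The sums of the other islet markers had higher medians in knockout cells at 2.8 mM. They were 696 to 2657 and 1580 to 9469 CPM for 6 alpha-cell markers, 251 to 391 and 481 to 1320 CPM for 4 delta-cell markers and 797 to 835 and 992 to 5112 CPM for *Ppy*, and only the alpha-cell sums overlapped. EdgeR called 0 of these 11 genes in either knockout comparison, with 5 at an unadjusted p under 0.05 at 2.8 mM and 2 at 16.7 mM, and DESeq2 called 1 at each concentration. The 6 macrophage markers summed to 85.3 to 155 CPM in control and 45.6 to 170 CPM in knockout cells at 2.8 mM and to 38.7 to 106 and 21.3 to 111 CPM at 16.7 mM, and 1 of them, *C1qa*, was called lower at 2.8 mM (-2.25, SE 0.39, adjusted p 0.00301). For glucose in *Pcbp2* βKO cells, edgeR called 4 of 6 alpha-cell, 2 of 4 delta-cell and 6 of 6 macrophage markers and *Ppy*. It called 7 of 8 β-cell and 0 of 6 duct markers there, beside 23.8% of all genes. In control cells it called 2 alpha-cell, 1 delta-cell, 1 macrophage, 5 β-cell and 1 duct marker and not *Ppy*, beside 13.8%. The part of these shifts in the results on the 10 genes was not tested.

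In TPM, a unit that corrects for transcript length, *Clcn3* and then *Lrrc8d* were the most abundant of the 10 transcripts in all 4 groups. *Clcn3* stood at 35.1 ± 5.39 TPM (n = 3) in control cells at 2.8 mM and *Lrrc8d* at 13.7 ± 1.36 TPM. *Lrrc8a*, the subunit that every volume-regulated channel needs, came next at 2.52 ± 0.0393 TPM. *Cftr* (0.930 ± 0.616 TPM), *Lrrc8c* (0.854 ± 0.336), *Slc26a3* (0.818 ± 0.575) and *Slc12a2* (0.644 ± 0.146) followed in this group, and their SDs overlapped so that their order was not resolved. *Lrrc8b* lay at 0.311 ± 0.0646 TPM, and *Lrrc8e* and *Ano1* were near the detection limit at 0.0545 ± 0.0277 and 0.0301 ± 0.0289 TPM. In *Pcbp2* βKO cells at 2.8 mM *Cftr* was the last of the 10 at 0.00834 ± 0.00972 TPM and *Lrrc8c* the ninth at 0.0431 ± 0.0416 TPM (n = 5).

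**Figure D1:**
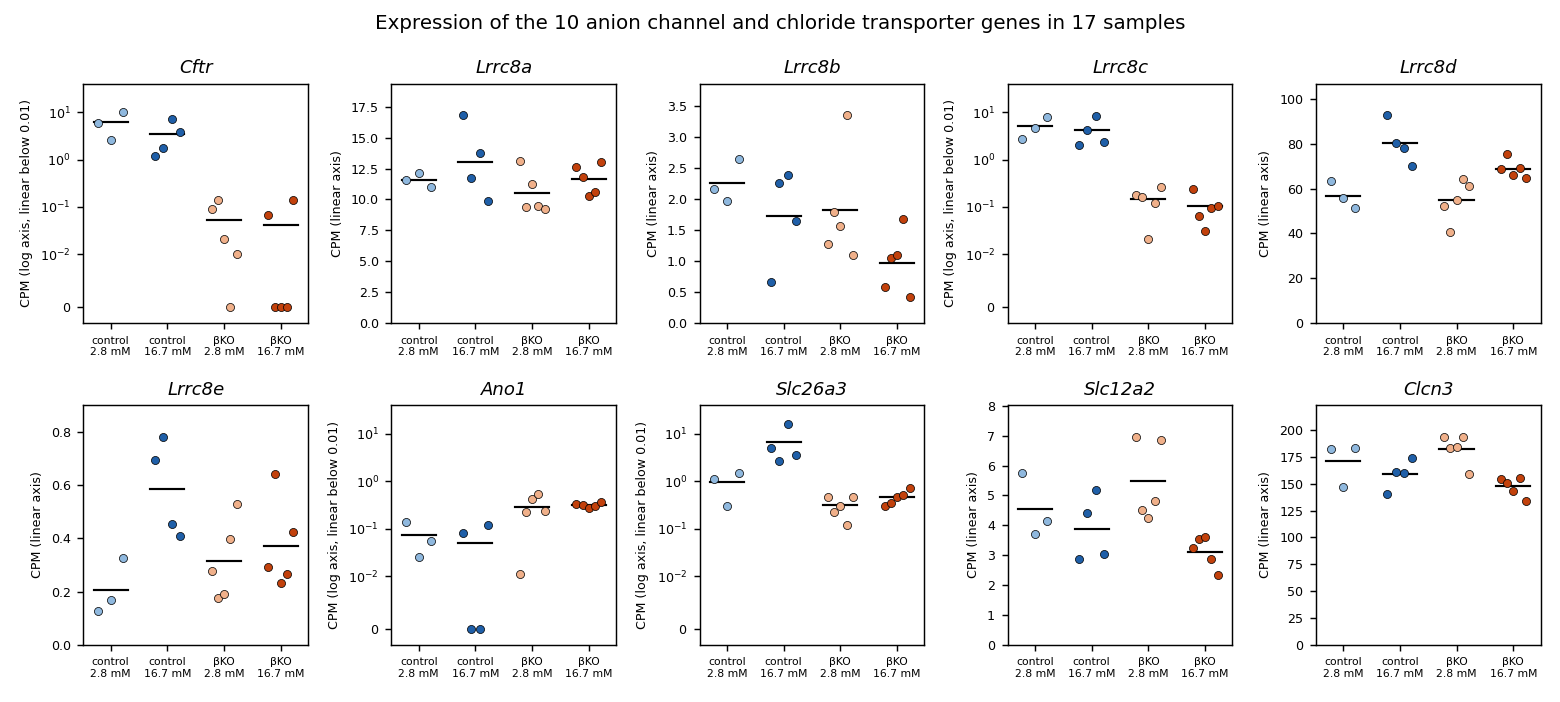
Expression of the 10 genes in CPM (vertical axes) in each of the 17 samples, by genotype and glucose concentration; bars are group means, and the axes of *Cftr*, *Lrrc8c*, *Ano1* and *Slc26a3* are logarithmic above 0.01. Every *Pcbp2* βKO sample lies below every control sample for *Cftr* and *Lrrc8c*, and *Slc26a3* is highest in the 4 control samples at 16.7 mM.

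The comparison of genotypes at 16.7 mM glucose addressed which of these genes depend on *Pcbp2* under sustained high glucose. Genes were called where edgeR's quasi-likelihood test gave adjusted p below 0.05 with a change of more than 1.5-fold. Of the 10 genes, 3 were called, all lower in *Pcbp2* βKO cells: *Cftr*, *Lrrc8c* and *Slc26a3*. Over all 22784 genes tested 1.71% were called, 66 higher and 323 lower. The 10 genes were chosen with earlier results of these data known, so these shares are a description and not a test of the list. The median log2 fold change of the 10 genes was -0.48 and that of all genes 0.01. At 2.8 mM, 2 of the 10 were called, *Cftr* and *Lrrc8c*, again both lower, against 2.04% of all genes (58 higher and 406 lower), and the medians were -0.10 and 0.03. On the log2(TPM + 1) scale, which compresses genes under 1 TPM, limma called 0 of the 10 at 16.7 mM, with *Cftr* at -0.38 (adjusted p 0.297), *Lrrc8c* at -0.40 (adjusted p 0.0666) and *Slc26a3* at -1.20 (adjusted p 0.0558). In bulk RNA, fewer cells that express a gene and less RNA per cell cannot be told apart.

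*Cftr*, the cAMP-activated channel, was present in all control libraries. Its 4 control values at 16.7 mM were 1.21, 1.78, 7.09 and 3.81 CPM, and in *Pcbp2* βKO cells 3 of 5 libraries held 0 counts and the other 2 held 0.0684 and 0.141 CPM. At 2.8 mM the control values were 5.84, 2.59 and 10.3 CPM, and the knockout values 0.0894, 0.141, 0.0212, 0 and 0.00999 CPM. The lowest control library thus exceeded the highest knockout library at each concentration, although control libraries differed among themselves several-fold. The log2 fold change was -6.27 (SE 0.93, 77.1-fold lower, adjusted p 0.000736) at 16.7 mM and -6.82 (SE 0.94, 113-fold lower, adjusted p 0.00031) at 2.8 mM. With at most 12 counts per knockout library, the fold changes carry wide 95% intervals, from -8.10 to -4.44 and from -8.66 to -4.98. Without the 3 libraries that lay apart, the value at 16.7 mM was -7.16 (SE 1.19, adjusted p 0.00345).

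*Lrrc8c*, a subunit of the volume-regulated channel, showed the same ordering of libraries. Its control values were 2.02, 4.22, 8.27 and 2.39 CPM at 16.7 mM and 2.67, 4.56 and 7.94 CPM at 2.8 mM. In *Pcbp2* βKO cells they were 0.240, 0.0642, 0.0308, 0.0938 and 0.103 CPM at 16.7 mM and 0.179, 0.164, 0.0212, 0.121 and 0.260 CPM at 2.8 mM. All 10 knockout libraries had some *Lrrc8c* counts, between 2 and 26, and none reached the lowest control value. The gene was 39.7-fold lower at 16.7 mM (log2 fold change -5.31, SE 0.63, adjusted p 7.88e-05) and 33.4-fold lower at 2.8 mM (-5.06, SE 0.62, adjusted p 7.25e-05). The value at 16.7 mM was -5.44 (SE 0.81, adjusted p 0.00175) without the 3 libraries.

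None of the other 4 *Lrrc8* genes was called in either knockout comparison by edgeR, and none was at an unadjusted p under 0.05. *Lrrc8a* was 13.1 ± 3.00 CPM in control and 11.7 ± 1.22 CPM in *Pcbp2* βKO cells at 16.7 mM (log2 fold change -0.16, 95% interval -0.48 to 0.16), and 11.6 ± 0.572 and 10.5 ± 1.69 CPM at 2.8 mM. *Lrrc8d* was 80.4 ± 9.50 and 68.7 ± 4.16 CPM at 16.7 mM (log2 fold change -0.23, 95% interval -0.48 to 0.02) and 56.8 ± 6.10 and 54.7 ± 9.18 CPM at 2.8 mM. These intervals exclude changes of the size seen for *Lrrc8c*. *Lrrc8b* ranged from 0.654 to 2.39 CPM in control and from 0.411 to 1.69 CPM in knockout libraries at 16.7 mM, and its log2 fold change was -0.85 (SE 0.43, adjusted p 0.445). *Lrrc8e* held 15 to 53 counts in knockout and 11 to 44 counts in control libraries, and its fold changes of -0.65 (SE 0.42) and 0.59 (SE 0.48) on the log2 scale lay on opposite sides of 0 at 16.7 and 2.8 mM. *Lrrc8a* overlaps a tested annotated gene on the same strand (Gm28035), with which it may share reads, and because the libraries are not stated to keep strand the same holds for the antisense gene 1700084E18Rik.

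*Slc26a3*, the chloride/bicarbonate exchanger, fell at 16.7 mM. Its control values there were 5.05, 2.74, 15.96 and 3.65 CPM, and the knockout values 0.308, 0.353, 0.462, 0.522 and 0.707 CPM. The groups did not overlap, and the log2 fold change was -3.85 (SE 0.56, 14.5-fold lower, adjusted p 0.000521). It was -4.39 (SE 0.71, adjusted p 0.0031) when the 3 libraries were left out. At 2.8 mM the control values of 1.13, 0.296 and 1.499 CPM overlapped with the knockout values of 0.469, 0.223, 0.307, 0.121 and 0.469 CPM, and the difference of -1.60 (SE 0.56) did not pass the correction (adjusted p 0.194).

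*Ano1*, the calcium-activated channel, was barely detected in control cells, with 0.0818, 0, 0 and 0.117 CPM at 16.7 mM. All 5 knockout libraries at 16.7 mM had more, between 0.277 and 0.373 CPM (18 to 29 counts). The log2 fold change of 2.63 (SE 0.89) had an unadjusted p of 0.00873 and an adjusted p of 0.191, so the difference did not pass over all genes. It was 3.51 (SE 1.21, adjusted p 0.174) without the 3 libraries. At 2.8 mM the knockout libraries ranged from 0.0112 to 0.538 CPM and overlapped with the controls (0.0258 to 0.139 CPM), with a log2 fold change of 1.93 (SE 0.92, adjusted p 0.389).

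*Slc12a2*, the chloride loader, and *Clcn3*, the vesicular exchanger, were not called in either knockout comparison. At 16.7 mM *Slc12a2* was 3.87 ± 1.11 CPM in control and 3.12 ± 0.528 CPM in *Pcbp2* βKO cells (log2 fold change -0.31, 95% interval -0.78 to 0.15). *Clcn3* was 159 ± 13.8 and 148 ± 8.80 CPM (log2 fold change -0.11, 95% interval -0.31 to 0.10). For *Clcn3*, the most precisely measured of the 10 genes, the interval at 2.8 mM was -0.13 to 0.32, and it overlaps the tested antisense genes B230317F23Rik and *Nek1*. Counting groups without overlap, *Cftr*, *Lrrc8c*, *Slc26a3* and *Ano1*, or 4 of 10, were separated at 16.7 mM (4.49% of all genes tested), and *Cftr* and *Lrrc8c*, or 2 of 10, at 2.8 mM (10.9%). These shares too describe a list chosen with earlier results known.

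**Figure D2:**
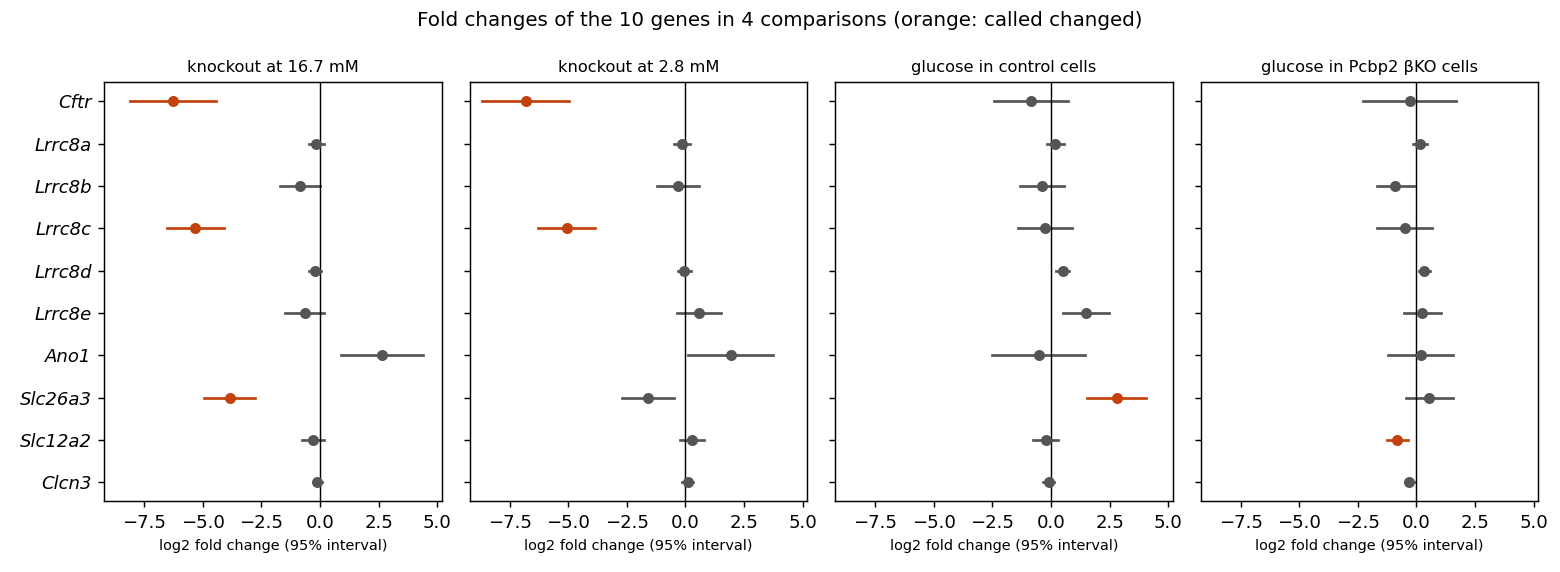
Log2 fold changes (horizontal axes) of the 10 genes with 95% intervals in the comparisons of genotype at each glucose concentration and of glucose within each genotype; orange marks called genes (adjusted p below 0.05, change of more than 1.5-fold). The points of *Cftr* and *Lrrc8c* lie below -5 in both knockout comparisons and within 1 of 0 in both glucose comparisons. The intervals use a normal quantile and are narrower than the edgeR test implies. Those of *Lrrc8b* at 16.7 mM and *Ano1* at 2.8 mM exclude 0 for the knockout. Their unadjusted edgeR p were 0.0613 and 0.0502, not under 0.05.

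The comparison of glucose concentrations within control cells addressed which genes change when β cells adapt to sustained high glucose. One of the 10 genes was called by edgeR, *Slc26a3*, against 13.8% of all genes tested (1629 higher and 1524 lower), and the median log2 fold change was -0.17 for the 10 genes and 0.04 for all genes. The control values of *Slc26a3* given above did not overlap between 2.8 and 16.7 mM, and it was 6.99-fold higher at 16.7 mM (log2 fold change 2.81, SE 0.64, adjusted p 0.00743). By limma on log2(TPM + 0.1) it stood at 1.29 (adjusted p 0.104) and on log2(TPM + 1) at 0.74 (adjusted p 0.0797), and was not called. Without the 3 libraries that lay apart it was 2.98 (SE 0.66, adjusted p 0.0034). Replicate numbers were taken to pair the control samples and were entered as a block in a further fit. Replicate 4 at 16.7 mM adds nothing to it because it has no partner. This fit called 5670 of all 19826 genes tested in it and 3 of the 10 genes. These were *Slc26a3* at 2.92 (SE 0.30, adjusted p 1.91e-05), *Lrrc8e* at 1.69 (SE 0.57, adjusted p 0.0377) and *Cftr* at -1.07 (SE 0.33, adjusted p 0.0232). Without the block *Cftr* stood at -0.84 (SE 0.80, adjusted p 0.536). *Lrrc8e* was 0.127, 0.168 and 0.328 CPM at 2.8 mM and 0.411 to 0.784 CPM at 16.7 mM, without overlap, and just missed the correction without the block (log2 fold change 1.48, SE 0.50, adjusted p 0.0535). It passed without the 3 libraries (1.60, SE 0.55, adjusted p 0.0459).

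In *Pcbp2* βKO cells 1 of the 10 genes was called for glucose, *Slc12a2*, against 23.8% of all genes (3056 higher and 2375 lower). The medians were -0.07 for the 10 genes and 0.01 for all genes. *Slc12a2* was 6.97, 4.50, 4.24, 4.82 and 6.84 CPM at 2.8 mM and 3.25, 3.53, 3.62, 2.85 and 2.34 CPM at 16.7 mM. Every value at 16.7 mM was lower than every value at 2.8 mM, and the log2 fold change was -0.81 (SE 0.22, adjusted p 0.0103), or -0.70 (SE 0.25, adjusted p 0.042) without the 3 libraries. On log2(TPM + 1) it was -0.57 by limma, which is under 1.5-fold and was not called. In control cells the same gene differed by -0.23 (SE 0.27, adjusted p 0.63) and the groups overlapped in CPM. In TPM the control groups did not overlap (0.507 to 0.798 at 2.8 mM and 0.191 to 0.443 at 16.7 mM), and limma on log2(TPM + 0.1) called *Slc12a2* in control cells as well (-0.83, SE 0.26, adjusted p 0.0158). On that scale 8460 of all 22784 genes were called lower at 16.7 mM in control cells, and the median log2 fold change of all genes was -0.56. *Slc26a3* rose in control cells but stood at 0.55 (SE 0.51, adjusted p 0.469) in *Pcbp2* βKO cells.

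*Lrrc8d* and *Clcn3* had adjusted p under 0.05 for glucose but changes under 1.5-fold. *Lrrc8d* went from 51.4 to 63.4 CPM at 2.8 mM to 70.0 to 92.9 CPM at 16.7 mM in control cells (log2 fold change 0.50, SE 0.15, adjusted p 0.0279) and from 40.8 to 64.3 CPM to 64.5 to 75.3 CPM in *Pcbp2* βKO cells (0.33, SE 0.12, adjusted p 0.0473). The sign of the *Lrrc8d* difference depended on the scaling, at -0.28 in control cells by limma on log2(TPM + 0.1) and at -0.15 in *Pcbp2* βKO cells with total counts alone. *Clcn3* went from 183 ± 14.0 to 148 ± 8.80 CPM in *Pcbp2* βKO cells, without overlap (log2 fold change -0.31, SE 0.10, adjusted p 0.0252). The size of this difference also depended on the scaling, and *Clcn3* was called lower in *Pcbp2* βKO cells at -0.79 with total counts alone and at -1.37 by limma on log2(TPM + 0.1), and in control cells at -0.94 by the latter. The medians of all genes in these fits were -0.47 and -0.71 in *Pcbp2* βKO cells and -0.56 in control cells. The count of groups without overlap was 3 of 10 in control cells (*Slc26a3*, *Lrrc8d* and *Lrrc8e*; 24.1% of all genes) and 3 of 10 in *Pcbp2* βKO cells (*Slc12a2*, *Clcn3* and *Lrrc8d*; 21.6%).

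The interaction asked whether the glucose response differed between genotypes. EdgeR called 0 of the 10 genes and 0.00439% of all genes (1 gene), DESeq2 called 0 of the 10, and 1 of the 10 was at an unadjusted p under 0.05. That gene was *Slc26a3*, whose glucose response was lower in *Pcbp2* βKO cells by 2.25 on the log2 scale (SE 0.80, 95% interval of the difference -3.81 to -0.70, unadjusted p 0.011, adjusted p 1.00). The difference was -2.80 (SE 0.88, adjusted p 0.463) without the 3 libraries. The glucose responses of *Slc26a3* and *Slc12a2* are thus not shown to differ between the genotypes after correction.

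The counts of *Slc26a3* were also examined by transcript. The longest coding transcript, Slc26a3-201 (chr12:31488218-31523916, 21 exons), had 2.95, 1.98, 11.1 and 2.77 CPM in the 4 control libraries at 16.7 mM. The knockout libraries at this concentration had 0, 0, 0.0154, 0.0145 and 0 CPM, that is at most about 1 estimated count per library. A shorter coding transcript, Slc26a3-205, had 0.185 to 3.56 CPM in control cells and was listed at 0 in all 5 knockout libraries.

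A retained-intron transcript, Slc26a3-202, did not show this difference. It spans chr12:31520871-31521822 and has 847 bases, of which 177 lie in exons 19 and 20 of Slc26a3-201 and 670 in its introns. It had 0.111, 0.274, 0.293 and 0.277 CPM in control cells and 0.239, 0.162, 0.243, 0.355 and 0.554 CPM in *Pcbp2* βKO cells at 16.7 mM, and the groups overlapped. Its share of the gene's estimated counts was 5.39% ± 4.02 (SD, n = 4) in control and 64.5% ± 14.7 (n = 5) in knockout cells, while that of Slc26a3-201 was 69.0% ± 7.58 and 1.22% ± 1.69. For Slc26a3-201, Slc26a3-205 and Slc26a3-202 the exact two-sided permutation test of the share gave p = 0.00794, the smallest value that the 126 arrangements of 4 and 5 samples allow, and the value adjusted over the 22 tests of transcript shares was 0.0582, which does not pass. At 2.8 mM the share of Slc26a3-201 was 31.7% in control and 17.2% in knockout cells (exact permutation p = 0.518). Most of the counts of *Slc26a3* that remained in *Pcbp2* βKO cells at 16.7 mM were therefore assigned to transcripts with intron sequence, with a further 28.2% ± 20.3 in the retained-intron transcript Slc26a3-204. Reads that overlap the shared exons are divided between transcripts by an estimate. *Slc26a3* held 18 to 55 counts per knockout library at 16.7 mM, so the knockout shares rest on few reads.

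**Figure D3:**
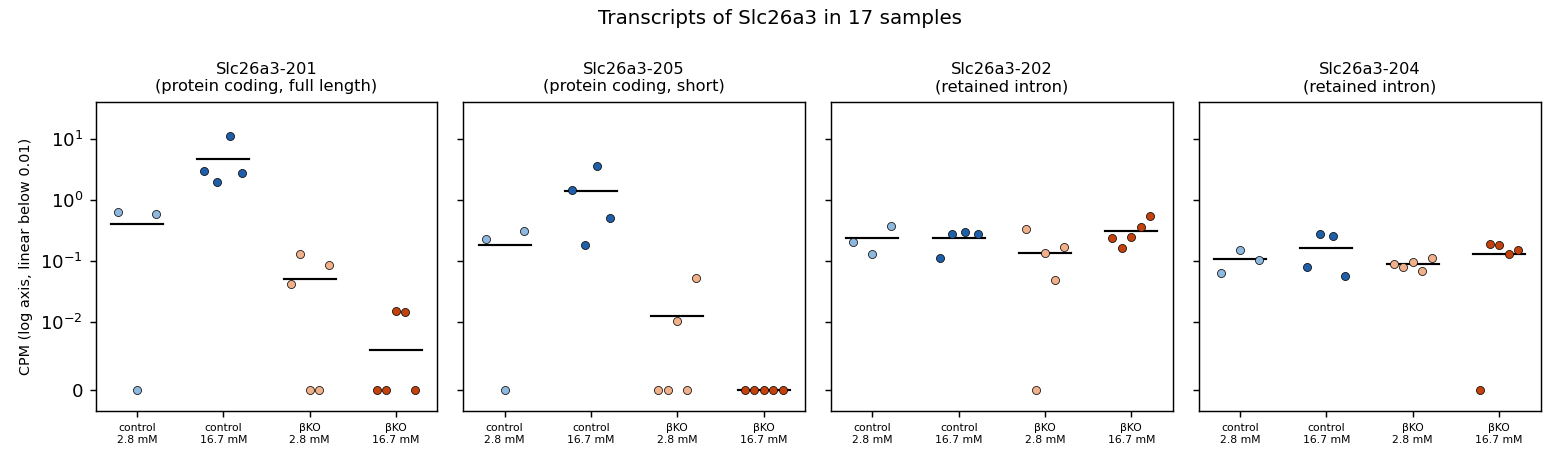
CPM of 4 *Slc26a3* transcripts (vertical axis, logarithmic above 0.01) in each of the 17 samples; bars are group means. The coding transcripts Slc26a3-201 and Slc26a3-205 are at or near 0 in *Pcbp2* βKO cells at 16.7 mM, whereas the retained-intron transcript Slc26a3-202 lies between 0.111 and 0.554 CPM in both genotypes at that concentration.

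Among the transcripts of other genes whose shares could be tested, the lowest adjusted p was 0.314. *Cftr* was not among them, because 3 knockout libraries at 16.7 mM and 1 at 2.8 mM held none of its reads. Lrrc8c-201 took 98.8% of the counts of *Lrrc8c* in control and 94.5% in *Pcbp2* βKO cells at 16.7 mM (exact permutation p = 1.00). The 2 transcripts that held most of *Clcn3*, Clcn3-203 and Clcn3-204, took 60.4% and 25.7% in control and 55.1% and 31.7% in knockout cells, with exact permutation p of 0.151 and 0.119.

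Across the 17 samples, the gene whose log2 CPM was most like that of *Cftr* among 13079 genes with a mean of at least 1 CPM was *Syndig1* (Pearson r = 0.958), followed by *Lrrc8c* itself (0.947), *Kcnj5*, a subunit of an inwardly rectifying potassium channel (0.946), Rps13-ps1, a pseudogene that may share reads with its parent gene (0.943) and *Cym* (0.941). The genes most like *Lrrc8c* were *Gbp8* (0.969), *Syt10* (0.958), *Prok1* (0.952), *Kcnj5* (0.951) and *Angptl8* (0.949). For *Slc26a3* they were *Ezr* (0.918), *Srbd1* (0.908), Gm26686 (0.897), F630042J09Rik (0.885) and *Neb* (0.883). *Slc26a3* itself correlated with *Cftr* and *Lrrc8c* at 0.72 and 0.715, and *Ano1* with them at -0.707 and -0.769. These values describe samples that fall into 4 groups and share the same libraries.

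**Figure D4:**
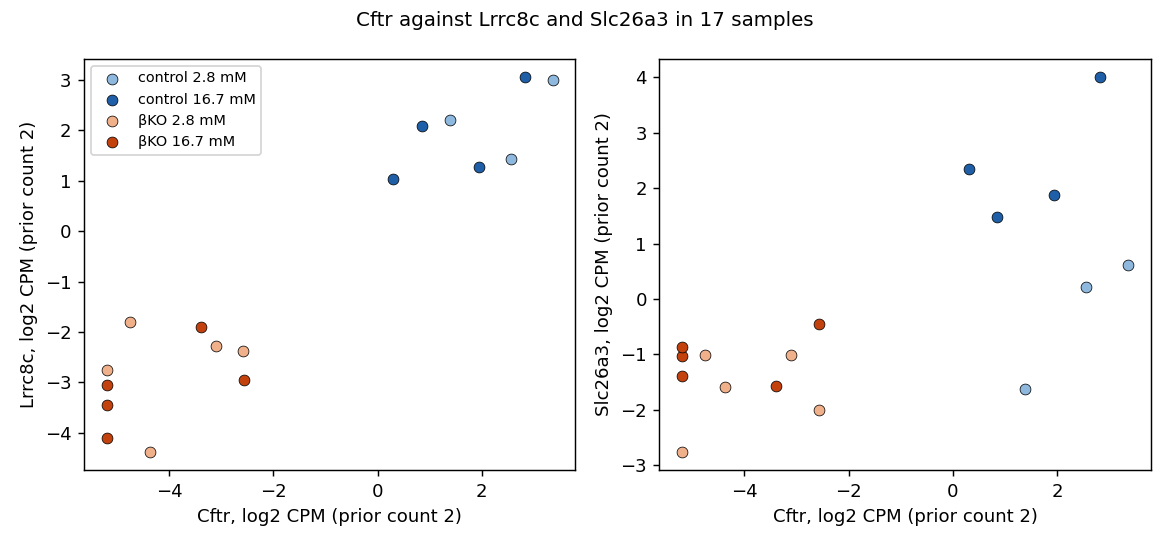
Log2 CPM (prior count 2) of *Cftr* (horizontal axes) against *Lrrc8c* on the left and *Slc26a3* on the right (vertical axes) in the 17 samples, coloured by genotype and glucose. Control and *Pcbp2* βKO samples form separate clusters on both axes for *Cftr* and *Lrrc8c* (r = 0.947 over all samples).

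Because *Gbp8* lies near *Lrrc8c*, the tested genes within 1000000 bases of each of the 10 genes were also examined, a choice made after the values had been seen. Near *Cftr* (chr6:18170686-18322767), 3 of 12 genes were called at 16.7 mM and 2 at 2.8 mM, all lower in *Pcbp2* βKO cells, beside 1.71% and 2.04% of all genes. With the 3 libraries left out, 2 were called at 16.7 mM, since Gm43843 then had an adjusted p of 0.0647. The adjacent gene *Cttnbp2*, which encodes a cortactin-binding protein (chr6:18366477-18514842), had 47.4 to 73.0 CPM in control and 14.7 to 28.9 CPM in knockout libraries at 16.7 mM (log2 fold change -1.46, SE 0.21, adjusted p 0.000583), and changed by -2.23 (SE 0.23, adjusted p 1.16e-05) at 2.8 mM. The others were Gm43843, which lies within *Cttnbp2* and may share its reads (-1.57 and -2.11), and Gm5874 (-3.69 at 16.7 mM, adjusted p 0.0036).

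Near *Lrrc8c* (chr5:105666591-105760884), 4 of 15 genes were called at both concentrations, all lower and all of the guanylate-binding protein family, interferon-induced GTPases. *Gbp8* had 17.4 to 55.3 CPM in control and 1.43 to 2.85 CPM in knockout libraries at 16.7 mM (log2 fold change -3.96, SE 0.39, adjusted p 7.22e-06). *Gbp9*, *Gbp4* and *Gbp11* changed by -4.99, -3.52 and -6.44. All 4 were also called without the 3 libraries, where 5 of the 15 genes were called. The spans of *Gbp8*, *Gbp9* and *Gbp4* overlap and the family is similar in sequence, so the division of reads among them is uncertain. *Lrrc8b* and *Lrrc8d*, separated from *Lrrc8c* by 28647 and 86914 bases, were not called.

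Near *Slc26a3* (chr12:31440870-31523916), edgeR called 0 of 17 genes at either concentration, with 1 and 0 at an unadjusted p under 0.05 at 16.7 and 2.8 mM, and DESeq2 called 1 and 0. Near *Lrrc8a* 0 and 1 of 52 genes were called at 16.7 and 2.8 mM, near *Lrrc8e* 0 and 1 of 39, near *Ano1* 0 and 0 of 19, near *Slc12a2* 1 and 0 of 9 and near *Clcn3* 1 and 1 of 15. *Lrrc8b* and *Lrrc8d*, which were not called themselves, had 5 called neighbours of 17 and of 16 at each concentration, the 4 *Gbp* genes and *Lrrc8c*. *Lrrc8b*, *Lrrc8c* and *Lrrc8d* lie next to each other on chromosome 5 and share these *Gbp* neighbours, so they are not separate cases. Whether the position of *Cftr* and *Lrrc8c* beside other genes that fell has a part in their own change was not tested.

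**Figure D5:**
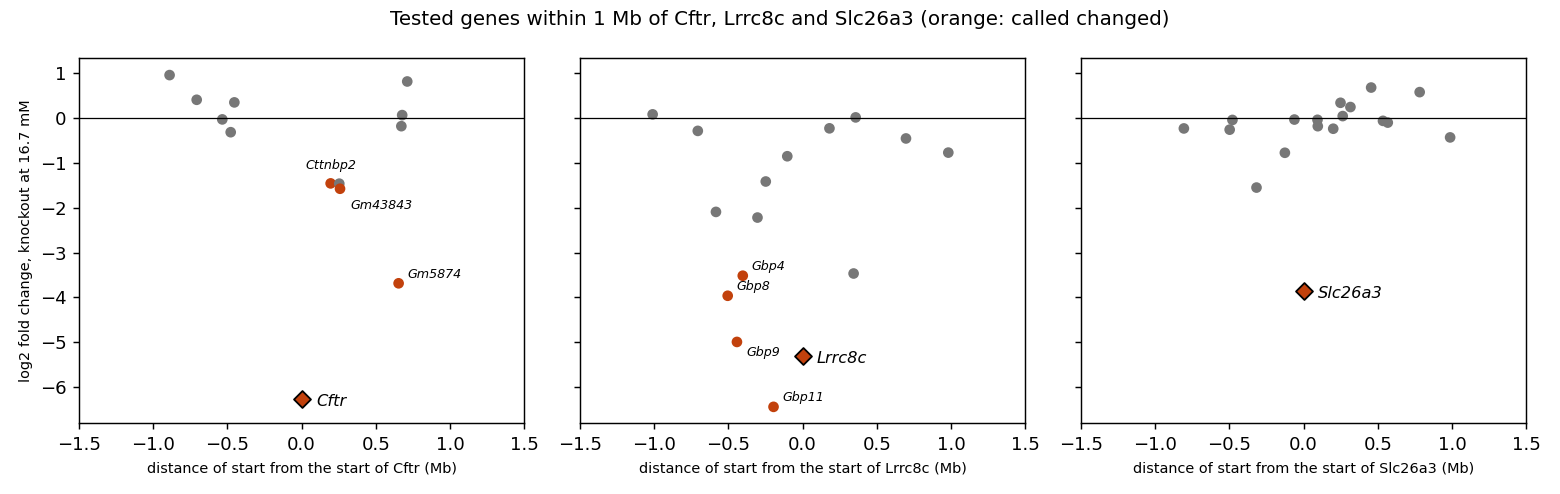
Log2 fold change of the knockout at 16.7 mM (vertical axis) of every tested gene within 1000000 bases of *Cftr*, *Lrrc8c* and *Slc26a3*, against the distance of its annotated start from that of the gene (horizontal axes, Mb); orange marks called genes and diamonds the 3 genes themselves. The called genes near *Cftr* and *Lrrc8c* all lie below 0, and no gene near *Slc26a3* is orange.

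Among 100 other genes of chloride and anion transport found in the files, 79 were tested. At 16.7 mM, edgeR called 0 higher and 2 lower in *Pcbp2* βKO cells, 14 were at an unadjusted p under 0.05 and DESeq2 called 2. The 2 calls were 2.53% of the 79, beside 1.71% of all genes, and the median log2 fold change was -0.04. With the 3 libraries left out 1 of 77 was called (1.3%), beside 2.63% of all genes. *Ano3*, another member of the anoctamin family, was 0.497 ± 0.376 CPM in control and 0.0929 ± 0.044 CPM in knockout cells (log2 fold change -2.44, SE 0.52, adjusted p 0.0172), but without the 3 libraries it was -1.40 (SE 0.53, adjusted p 0.232) and was not called. *Ezr*, which encodes ezrin, a linker of membrane proteins such as CFTR to actin, was 72.5 ± 25.4 and 35.5 ± 7.74 CPM (log2 fold change -1.03, SE 0.20, adjusted p 0.00885), and -1.29 (SE 0.23, adjusted p 0.00601) without the 3 libraries. At 2.8 mM, edgeR called 0 higher and 2 lower, with 14 at an unadjusted p under 0.05 and 4 called by DESeq2, beside 2.04% of all genes. They were *Ano3* again (-2.40, SE 0.49, adjusted p 0.0119) and *Clcn6*, an endosomal chloride/proton exchanger, which went from 11.5 ± 1.13 to 7.41 ± 0.546 CPM (-0.63, SE 0.14, adjusted p 0.0232).

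For glucose, 9 of the 79 were higher and 4 lower at 16.7 mM in control cells, and 13 were higher and 3 lower in *Pcbp2* βKO cells, with median log2 fold changes of 0.20 and 0.13. These were 16.5% and 20.3% of the 79, beside 13.8% and 23.8% of all genes. When the 3 libraries were left out, 24.7% and 29.9% of 77 were called, beside 21.9% and 28.6% of all genes. Their interaction was called for 0 genes by edgeR and by DESeq2, with 3 at an unadjusted p under 0.05. *Ttyh1*, of the tweety family of anion channels, rose in both genotypes, from 6.15 ± 1.32 to 305 ± 218 CPM in control (log2 fold change 5.63, SE 0.99, adjusted p 0.00163) and from 6.41 ± 1.80 to 147 ± 113 CPM in knockout cells (4.51, SE 0.74, adjusted p 0.000202). In the 3 libraries that lay apart its values, the lowest of their groups, were 27.6 CPM in control and 39.9 and 14.0 CPM in knockout cells, and without them its changes were 5.99 (SE 0.32) and 5.11 (SE 0.25). *Best3*, a bestrophin, also rose in both genotypes, from 5.10 ± 0.645 to 29.7 ± 10.96 CPM in control cells (2.54, SE 0.33, adjusted p 0.000345) and from 3.46 ± 0.478 to 29.1 ± 10.6 CPM in knockout cells (3.07, SE 0.27, adjusted p 1.88e-06). So did *Gabra4*, a GABA-A receptor subunit, from 0.329 ± 0.106 to 1.98 ± 1.42 CPM (2.58, SE 0.77, adjusted p 0.0292) and from 0.129 ± 0.0485 to 0.782 ± 0.56 CPM (2.59, SE 0.65, adjusted p 0.00522). *Clcn1*, the chloride channel of skeletal muscle, fell from 0.358 ± 0.123 to 0.0172 ± 0.0139 CPM in control cells (-4.26, SE 0.90, adjusted p 0.00494). *Ano3* fell in both genotypes (-1.82 in control and -1.85 in knockout cells), as did *Stk39*, which encodes the kinase SPAK that activates NKCC1 (-1.17 and -1.05), and each of these glucose calls was also made without the 3 libraries.

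In *Pcbp2* βKO cells *Slc4a11* (log2 fold change 4.80, SE 1.06, adjusted p 0.00218) and the glycine receptor gene *Glra1* (3.66, SE 0.83, adjusted p 0.00262) were also higher at 16.7 mM, though from means of 0.0181 and 0.0145 CPM. *Slc4a11* was called in both genotypes without the 3 libraries (3.47, SE 0.98, adjusted p 0.016 in control and 5.38, SE 0.97, adjusted p 0.000451 in knockout cells), whereas *Glra1* and *Slc26a7* did not then pass the filter. *Slc26a7*, an anion exchanger related to *Slc26a3*, was called lower with glucose in *Pcbp2* βKO cells. It had 5, 3, 3, 0 and 39 counts at 2.8 mM and 0 counts in all 5 libraries at 16.7 mM. Most of these counts came from 1 library, and no fold change is given for *Slc26a7*. With total counts alone as the scaling, the split of all calls shifted to 782 higher and 4055 lower in control and to 1482 higher and 6369 lower in *Pcbp2* βKO cells, and the median of all genes moved to -0.35 and -0.47.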

How the data were processed

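As the methods state, the authors mapped paired reads from libraries of poly(A) RNA (ultra-low-input kit, not stated to keep strand) to the mouse GRCm39 transcriptome by pseudoalignment with Kallisto, whose version is not given in the sources used here. The authors deposited estimated counts and TPM per transcript. TPM are scaled to the same total in every sample. The submitters' notes also name edgeR and mm39.

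Groups came from the labels. The members and lists were chosen with earlier results of these data known. For each gene the estimated counts of its transcripts were added, rounded and tested with edgeR 4.0.16 (R 4.3.3) in 1 quasi-likelihood fit of the 17 samples by group, with TMM scaling and filterByExpr, and p were adjusted by Benjamini-Hochberg over 22784 genes. CPM are scaled by TMM, with a prior count of 2 on the log2 scale. Each 95% interval is the log2 fold change plus or minus SE times a normal quantile, and is narrower than the edgeR test implies. The authors' batch factor has no levels in the sources and was not used. Alternatives used DESeq2 1.42.0, limma 3.58.1 on TPM, other scalings and filters, a replicate block and fewer samples. The edgeR, DESeq2 and limma fits were tested on simulated data first, limma on log2(CPM + 0.1) and not on TPM. Genes were named by rule: the 10 genes, listed genes called in a knockout comparison, the 3 called with the largest glucose change in each direction, the 5 genes most like *Cftr*, *Lrrc8c* and *Slc26a3*, and transcripts with at least 10% of a gene's counts. Neighbouring genes, and the fit of genes other than the 10 without 3 libraries, were chosen after the values were seen. Positions are from GENCODE vM39 (GRCm39); 104782 of 142376 transcripts matched it with ID and version, all with the same length. Samples with the same replicate number deviated together between the control groups (correlations of 0.199, 0.123 and 0.258), so the numbers were taken to pair them. In each other comparison at least 1 pair was at or below 0.1. Between the *Pcbp2* βKO groups the correlations were all positive (0.0664, 0.171, 0.105, 0.0746 and 0.193), so the numbers may pair these samples too. The fit with the block is given for them below. No labels say what a replicate is, so p measure the spread between samples.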

Additional observations from a re-analysis of the deposited data

How the results depend on the processing

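With any 1 sample left out, edgeR called 3 of the 10 genes in the knockout comparison at 16.7 mM, 2 at 2.8 mM and 0 for the interaction. It called 1 to 2 for glucose in control cells, where *Lrrc8e* joined without control replicate 3 at 2.8 mM or replicate 4 at 16.7 mM, and 1 to 2 in *Pcbp2* βKO cells, where *Lrrc8b* joined without replicate 4 at 16.7 mM. Over all genes, calls for the knockout with 1 sample left out ranged from 213 to 652 at 16.7 mM and from 242 to 492 at 2.8 mM. Those for glucose ranged from 1382 to 4480 in control and from 4640 to 5742 in *Pcbp2* βKO cells. For the knockout at 16.7 mM, limma called 0 on log2(TPM + 1) and 1 on log2(TPM + 0.1) without a filter. Over all genes it called 190 of 22784 and 193 of 45702 there. For glucose in control cells, 2 were called with a minimum count of 30, 2 by DESeq2, 2 without the 3 libraries that lay apart, 3 with the replicate block, 5 by limma on log2(TPM + 0.1) and 4 without its filter. Over all genes these settings called 3329 of 17391, 3901 of 22784, 4898 of 22352, 5670 of 19826, 8902 of 22784 and 7899 of 45702, in that order. In *Pcbp2* βKO cells 3 were called with total counts alone, 2 with the replicate block (*Slc12a2* at -0.80 and *Lrrc8b* at -0.96), 5 by limma on log2(TPM + 0.1) with or without a filter and 2 on log2(TPM + 1), *Lrrc8d* and *Clcn3*, where *Slc12a2* was not called. Over all genes these settings called 7851 of 22784, 5324 of 19747, 12449 of 22784 (11776 of 45702 without a filter) and 8831 of 22784. On log2(TPM + 1), where 6975 of all 22784 genes were called in control cells, the 1 of the 10 called was *Clcn3* in place of *Slc26a3*. The replicate block changed no other call. The median log2 fold change of all genes for glucose also moved with the scaling. With total counts alone it was -0.35 in control and -0.47 in *Pcbp2* βKO cells, and by limma on log2(TPM + 0.1) -0.56 and -0.71. The cause of the shifts in the calls was not tested.

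Every sign that changed was that of a value edgeR had not called. With total counts alone, glucose gave -0.23 for *Lrrc8a* in control cells and -0.33 for *Lrrc8a*, -0.15 for *Lrrc8d*, -0.23 for *Lrrc8e* and -0.32 for *Ano1* in *Pcbp2* βKO cells, and the knockout at 2.8 mM gave 0.0671 for *Lrrc8d*. With length-scaled TPM counts, *Lrrc8c* was 0.14 and *Lrrc8e* -0.25 for glucose in *Pcbp2* βKO cells and *Lrrc8c* 0.54 for the interaction. By limma on log2(TPM + 0.1), with or without a filter, glucose gave -0.60 for *Lrrc8a* and -0.28 for *Lrrc8d* in control cells and -0.82 for *Lrrc8a*, -0.66 for *Lrrc8d*, -0.52 for *Lrrc8e* and -0.39 for *Ano1* in *Pcbp2* βKO cells, the knockout at 2.8 mM gave 0.10 for *Lrrc8d*, and the interaction 0.88 for *Lrrc8c* and -0.19 for *Ano1*. On log2(TPM + 1) the same values were -0.42, -0.27, -0.56, -0.61, -0.10, -0.11, 0.0937, 0.41 and -0.0814, in that order, and *Slc26a3* was -0.012 for glucose in *Pcbp2* βKO cells. Without the 3 libraries the interaction of *Cftr* was -0.34.

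With 1 sample left out, the interaction ranged from -0.12 to 1.64 for *Ano1*, -0.83 to 1.28 for *Cftr*, -0.15 to 0.12 for *Lrrc8a* and -0.74 to 0.30 for *Lrrc8c*. Glucose in *Pcbp2* βKO cells ranged from -0.14 to 0.51 for *Ano1*, -1.67 to 0.43 for *Cftr* and -0.0476 to 0.52 for *Lrrc8e*, and in control cells from -1.47 to 0.30 for *Ano1* and -0.81 to 0.22 for *Lrrc8c*. The knockout at 2.8 mM ranged from -0.0018 to 0.15 for *Clcn3* and -0.12 to 0.0328 for *Lrrc8d*. Depth limits *Ano1*, *Lrrc8e* and, in *Pcbp2* βKO cells, *Cftr*, *Lrrc8c* and *Slc26a3*, which had at most 55 counts in a library.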
